A study of Mus musculus with 12 samples.

Results

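Collagens are the rod-like proteins that give connective tissue its tensile strength, and the genes described here are the 40 collagen genes of mouse whose symbol has the form Col, a number, a and a number and which reached at least 60 counts over all libraries. They are 40 of 23329 gene rows in the count tables and 40 of the 43 rows with such a symbol. Members just inside and just outside that minimum were Col11a1 with 61 counts and Col10a1 with 28, followed by Col9a1 with 21 and Col2a1 with 10. The genes were sorted by the structure their proteins form, into 10 fibrillar collagens, 6 chains of type IV, 4 further collagens of the basement membrane zone, 6 chains of type VI, 8 fibril-associated collagens, 2 short-chain network collagens, 3 membrane-spanning collagens and Col28a1.

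RNA came from spleen and duodenum of wild type C57BL/6J mice, an inbred laboratory strain, at 2 months of age. Each mouse had received 100 ul of a 1 mg/ml solution of AC H6, an antibody that engages and activates the lymphotoxin beta receptor (LTbR), or of an isotype control antibody, 24 hours earlier. There were 3 libraries for each of the 4 combinations of tissue and treatment and 12 in all, with no genotype but wild type. The labels do not say which libraries came from which mouse, so the p-values below measure the spread between these libraries.

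In collagen biosynthesis, alpha chains are hydroxylated and glycosylated in the endoplasmic reticulum, wound into a triple helix with the help of chaperones, secreted, trimmed by proteinases and crosslinked outside the cell. Fibrillar collagens build the cables of the interstitium, type IV forms the sheet of basement membranes under epithelium and around vessels, and type VI makes beaded filaments at the border between cells and matrix. In spleen the reticular fibres on which lymphocytes migrate are made by fibroblastic reticular cells and hold type III and type IV collagen, while in duodenum collagens are made mostly by fibroblasts and smooth muscle of the lamina propria, submucosa and muscle layers. LTbR is known for shaping the lymphoid stroma of both organs.

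Depth ran from 13874091 to 45847467 counts per library. Haemoglobin genes took 7.59 to 28.3% of the counts in spleen, pancreatic acinar genes took 3.35% in duodenum AC H6 replicate 3 and 0.852% in duodenum isotype replicate 2, and the Rn45s precursor of ribosomal RNA took 7.56% in duodenum isotype replicate 1. The tissue labels held: intestinal epithelial markers summed to 22780 to 24900 library-size-scaled counts (CPM) in the isotype duodenum and at most 69.7 in any spleen library, and of 10 brain markers Neurod6 was at 0 in all libraries, while the list, led by the myelin gene Mbp, summed to 75.4 to 88.3 CPM in spleen and 47.5 to 61.2 in duodenum. All CPM values are scaled with trimmed mean of M values (TMM) factors, and a level per kilobase is that CPM divided by the length of the gene's merged exons, the only scale on which genes are compared with each other.

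As a share of all counts, the 40 collagens together made up 0.196 ± 0.0209% in spleen under isotype and 0.165 ± 0.0267% under AC H6 (mean ± SD, n = 3 libraries in each group here and below). The shares in duodenum were 0.161 ± 0.0172% under isotype and 0.226 ± 0.0156% under AC H6. All 3 duodenum AC H6 libraries lay above all 3 isotype libraries, which gives p = 0.1 in a two-sided exact permutation test, the smallest value that 3 libraries against 3 allow. The spleen groups overlapped (exact permutation p = 0.2), and with haemoglobin, Rn45s and acinar genes left out of the total the spleen difference shrank to -0.0155 percentage points (exact permutation p = 0.7).

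The classes had unlike weights in the 2 tissues. Per kilobase, the chains of type IV held 31.2 ± 1.28% of the summed collagen level in isotype spleen and 19.1 ± 1.46% in isotype duodenum. Type VI held 10.2 ± 0.571% in isotype spleen and 27.8 ± 1.48% in isotype duodenum. Fibril-associated collagens held 15.3 ± 1.54% in spleen and 5.17 ± 0.372% in duodenum, while fibrillar collagens were near each other at 34.7 ± 1.20% and 35.9 ± 0.683%. Under AC H6 the type IV share was 35.0 ± 0.781% in spleen and 17.5 ± 0.510% in duodenum. Fibrillar collagens held 32.1 ± 0.269% and 37.7 ± 0.566% there, groups that did not overlap. With merged exons the order of the tissues was as under isotype for each of these classes. These shares depend on the length used: with the longest transcript in place of merged exons, fibrillar collagens held 44.6% in isotype spleen and 43.4% in isotype duodenum, and type IV 25.6% and 15.5%. By that length the fibrillar shares under AC H6 were 41.9% in spleen and 44.9% in duodenum. The order of the tissues for fibrillar collagens then differed between treatments, though the isotype groups overlapped.

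**Figure D1:**
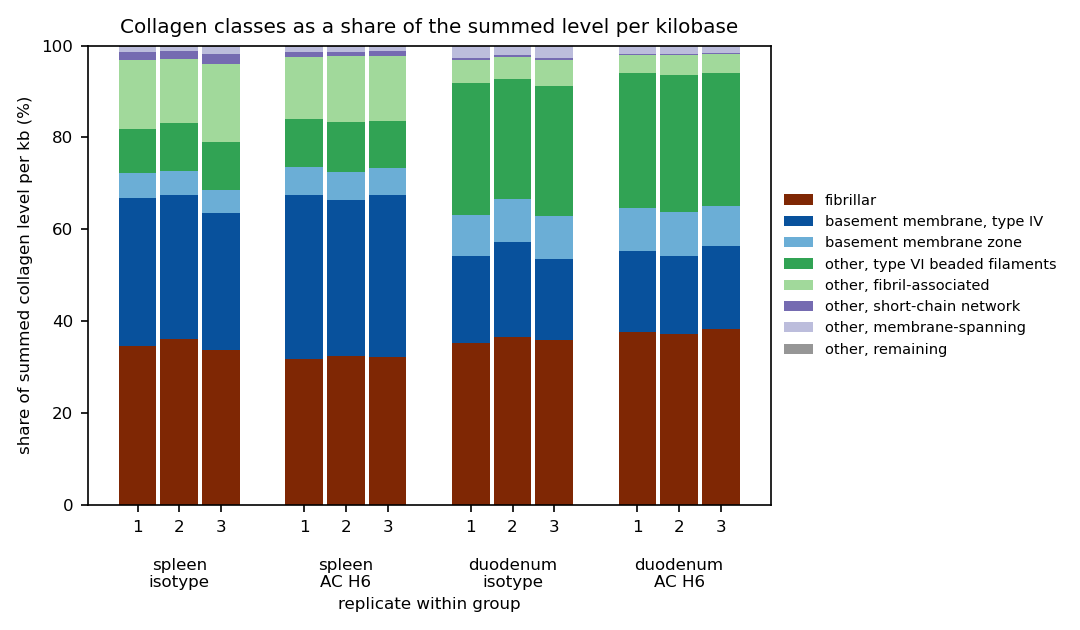
Share of each collagen class in the summed level per kilobase of merged exons (y axis, %), for each of the 12 libraries (x axis, replicate within the 4 groups). Type IV (dark blue) takes 31.2% on average in isotype spleen and 19.1% in isotype duodenum, and type VI (dark green) 10.2% and 27.8%.

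Among single genes, Col4a1 had the highest level per kilobase in spleen, at 33.0 ± 6.83 under isotype and 36.4 ± 3.07 under AC H6, followed by its partner chain Col4a2 at 27.6 ± 5.79 and 29.0 ± 2.35. Col14a1, which coats fibrils, was at 24.3 ± 2.59 in isotype spleen and Col3a1, the chain of type III collagen in reticular fibres, at 23.1 ± 5.56. The SDs of these 4 genes overlap, and with the longest transcript as the length Col1a2 came first at 44.5 ± 7.30, so their order in spleen depends on the length used. In duodenum Col3a1 was highest under both treatments and with both lengths, at 41.6 ± 4.92 per kilobase of merged exons under isotype. Next came the type VI chain Col6a1 at 36.4 ± 2.04, Col4a1 at 25.8 ± 5.19 and the type I chain Col1a1 at 21.7 ± 2.44. Under AC H6 the level of Col6a1 per kilobase of merged exons, 51.4 ± 2.13, could not be separated from that of Col3a1, 51.6 ± 2.80. With the longest transcript these were well apart, at 54.9 ± 2.27 and 90.9 ± 4.94. By that length Col1a2, at 32.6 ± 2.13, came before Col4a1 (29.1 ± 5.86) and Col1a1 (24.0 ± 2.70) in isotype duodenum. The order below Col6a1 in duodenum thus depends on the length used.

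Within each group of spleen libraries the lowest level per kilobase was that of Col24a1, 0.0040 under isotype and 0.0037 under AC H6. Within duodenum it was that of Col19a1 under isotype, 0.0145, and that of Col11a1 under AC H6, 0.0159. Col11a1, a minor fibrillar chain of cartilage, passed the filter on low counts in no comparison.

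In the duodenum, transcripts of collagens of several structural classes were higher under AC H6. Of 40 members, 37 passed the filter, 17 were higher under AC H6, 2 were lower and 18 were not called. A call here and below means a p under 0.05 in edgeR's quasi-likelihood test after the adjustment of Benjamini and Hochberg across every gene in the fit. The same rule called 18.5% of all 15667 genes tested higher and 16.1% lower. The median log2 fold change over the 37 collagens was 0.29, against 0.0083 over all genes tested. Counted by CPM alone, the groups did not overlap for 17 higher and 4 lower members, where this held for 23.7% and 26.3% of all genes tested. Col11a1, Col19a1 and Col6a6 were not tested, and Col17a1 passed the filter only through its AC H6 libraries, so its rise was built into its being tested, though it was also called with no filter on low counts. Rises were called in 7 of 9 tested fibrillar genes, 3 of 5 of type VI, 3 of 4 of the basement membrane zone, 3 of 7 fibril-associated genes and 1 of 6 of type IV, and in no short-chain gene and none of the 3 genes of the membrane-spanning class, which leaves out Col17a1, grouped here with the basement membrane zone.

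Markers of several cell types moved with these rises. Lymphocyte and red pulp macrophage genes summed to 2235 to 2760 CPM in the isotype duodenum and 1586 to 1832 under AC H6. Of 8 tested, Vcam1 and Cd3e were called higher and Slc40a1 lower, and the median log2 fold change was 0.31. The fall of the sum thus does not describe the list gene by gene. Of 8 fibroblast markers 4 were called higher under AC H6, namely Dcn, Dpt, Lum and Thy1, and their summed CPM over the list went from 273 to 294 in the isotype libraries to 361 to 401 under AC H6. Of 11 intestinal epithelial markers 8 were called lower, with sums of 22780 to 24900 under isotype and 17500 to 18560 under AC H6. Smooth muscle markers summed to 1469 to 1564 under isotype and 1374 to 1702 under AC H6, with Des called higher and Actg2 lower. Among 7 endothelial markers Pecam1 and Cdh5 were higher and Emcn lower. Among 8 genes of splenic stroma, 3 of the 6 tested in duodenum were higher, the chemokines Cxcl13, Ccl19 and Ccl21a, and the list summed to 43.2 to 48.5 CPM under isotype and 103 to 115 under AC H6. In the other lists Mbp and Gfap of 5 tested brain genes and Acta1 of 3 tested skeletal muscle genes were higher, and 0 were called of 4 mesothelial, 8 red cell precursor, 12 acinar genes and 1 adipocyte gene. No marker of the 6 lists given first was at 0 in every duodenum library. In whole tissue, more cells of a type and more RNA per cell cannot be told apart, and the part of these markers in the collagen result was not tested.

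**Figure D2:**
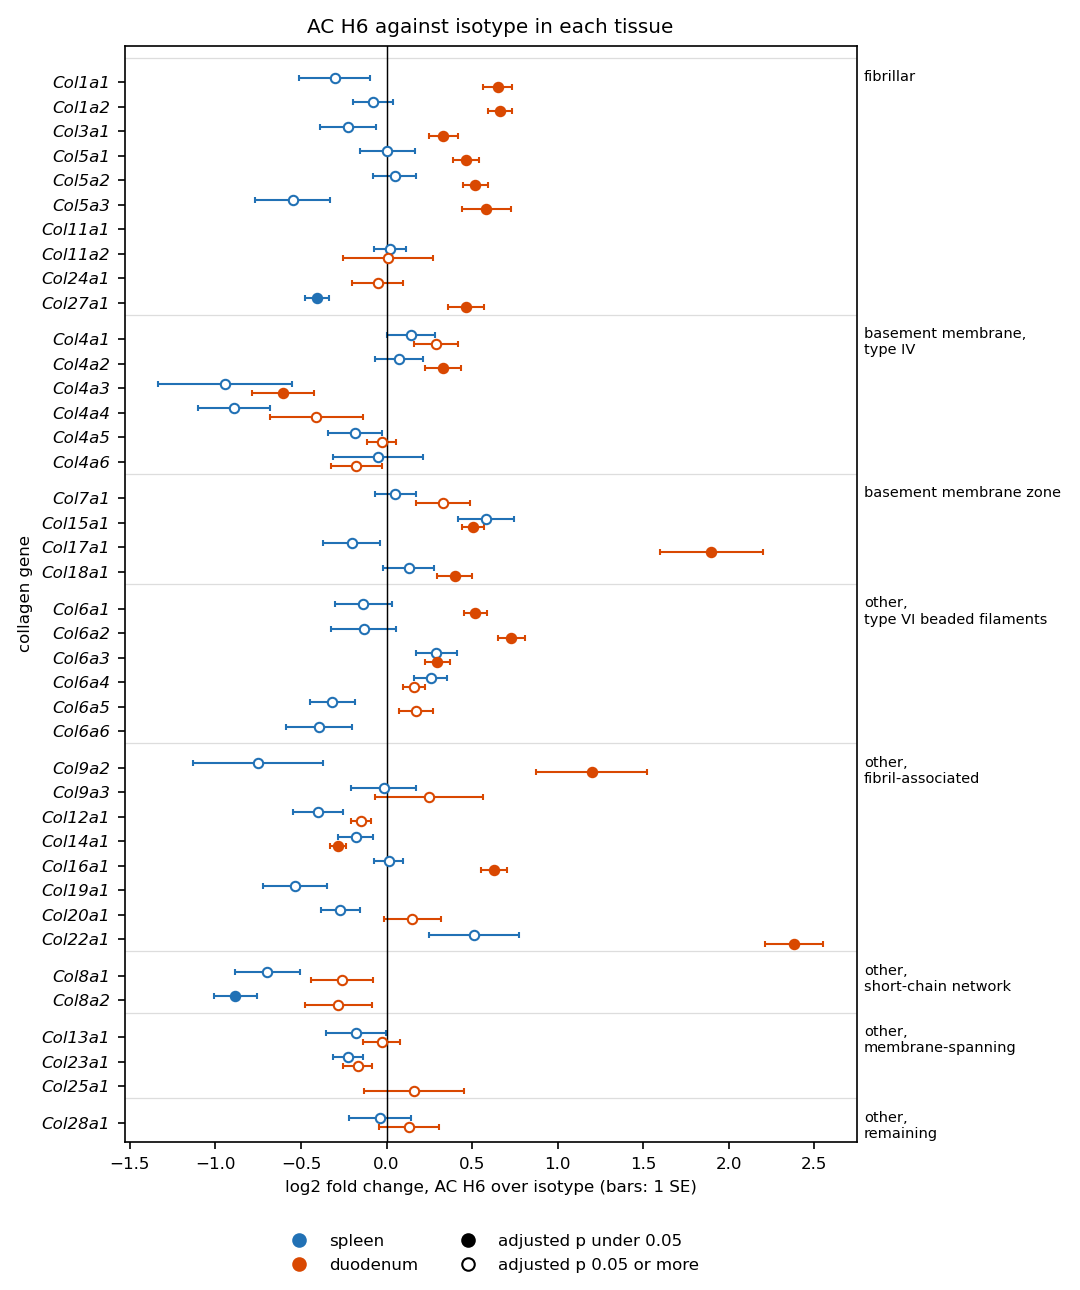
Log2 fold change of AC H6 over isotype (x axis, bars 1 SE) for each collagen gene (y axis, by class) in spleen (blue) and duodenum (orange), with filled symbols at an edgeR adjusted p under 0.05. In duodenum 17 filled symbols lie to the right of 0 and 2 to the left, and in spleen 2 lie to the left and 0 to the right.

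The chains of type I collagen, the main cable of most connective tissue, rose together in duodenum. Col1a1 (chromosome 11, 94936224 to 94953042, plus strand, GRCm38) had CPM of 137, 160 and 129 in the isotype libraries and 226, 215 and 218 under AC H6. Col1a2 (chromosome 6, 4504814 to 4541544, plus strand) had 172, 186 and 164 under isotype and 287, 257 and 271 under AC H6. For both genes every AC H6 library lay above every isotype library. The log2 fold change was 0.65 ± 0.09 (SE) for Col1a1 (edgeR adjusted p = 0.000901) and 0.66 ± 0.07 for Col1a2 (edgeR adjusted p = 0.000376). Type I is built from unequal numbers of both chains. The ratio of Col1a1 to Col1a2 per kilobase of merged exons was 1.54 ± 0.0727 under isotype and 1.53 ± 0.0496 under AC H6, a difference smaller than the spread between libraries. With the longest transcript as the length it was 0.735 ± 0.0346 and 0.731 ± 0.0236. Which chain is higher thus depends on the length used, and the ratio does not give the proportion of the chains.

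Col3a1 (chromosome 1, 45311538 to 45349706, plus strand), the chain of the fine fibrils that often run beside type I, had CPM of 388, 464 and 374 under isotype and 529, 475 and 514 under AC H6. The groups did not overlap, but the gap between isotype replicate 2 and AC H6 replicate 2 was narrow. Col3a1 rose by a log2 fold change of 0.33 ± 0.09 (edgeR adjusted p = 0.0181), and the call was lost without isotype replicate 1, isotype replicate 3 or AC H6 replicate 1 and in 1 fit of all 12 libraries, with adjusted p up to 0.134. The ratio of Col3a1 to Col1a1 per kilobase went from 1.92 ± 0.0267 under isotype to 1.54 ± 0.0557 under AC H6, with no overlap between the groups.

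Type V chains sit inside type I fibrils and limit their width, and all 3 of them rose. Col5a1 had 39.2, 47.2 and 38.5 CPM under isotype and 58.0, 54.0 and 58.0 under AC H6, a log2 fold change of 0.47 ± 0.08 (edgeR adjusted p = 0.00253). Col5a2 had 34.9, 41.5 and 34.6 CPM under isotype and 55.2, 49.3 and 52.4 under AC H6, a log2 fold change of 0.52 ± 0.07 (edgeR adjusted p = 0.00135). Col5a3, the rarer chain, had 5.59, 6.36 and 4.68 CPM under isotype and 9.32, 8.01 and 7.27 under AC H6, a log2 fold change of 0.58 ± 0.14 (edgeR adjusted p = 0.0143). The groups did not overlap for any of the 3 chains. The Col5a3 call was lost without AC H6 replicate 1 (edgeR adjusted p = 0.0504).

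Col27a1 (chromosome 4, 63214004 to 63334991, plus strand), a fibrillar collagen best known from developing cartilage, had 10.1, 9.82 and 9.75 CPM under isotype and 13.4, 15.1 and 11.8 under AC H6. The groups were apart, and the log2 fold change was 0.47 ± 0.10 (edgeR adjusted p = 0.00992). The fibrillar genes without a call in duodenum were Col11a2, at 0.0099 ± 0.26, and Col24a1, at -0.05 ± 0.15. Col11a2 had 10.2, 22.8 and 11.4 CPM under isotype and 15.7, 15.7 and 13.3 under AC H6, so isotype replicate 2 was high. That library is the isotype library richest in acinar genes, and without it the log2 fold change of Col11a2 was 0.47 (edgeR adjusted p = 0.0157).

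**Figure D3:**
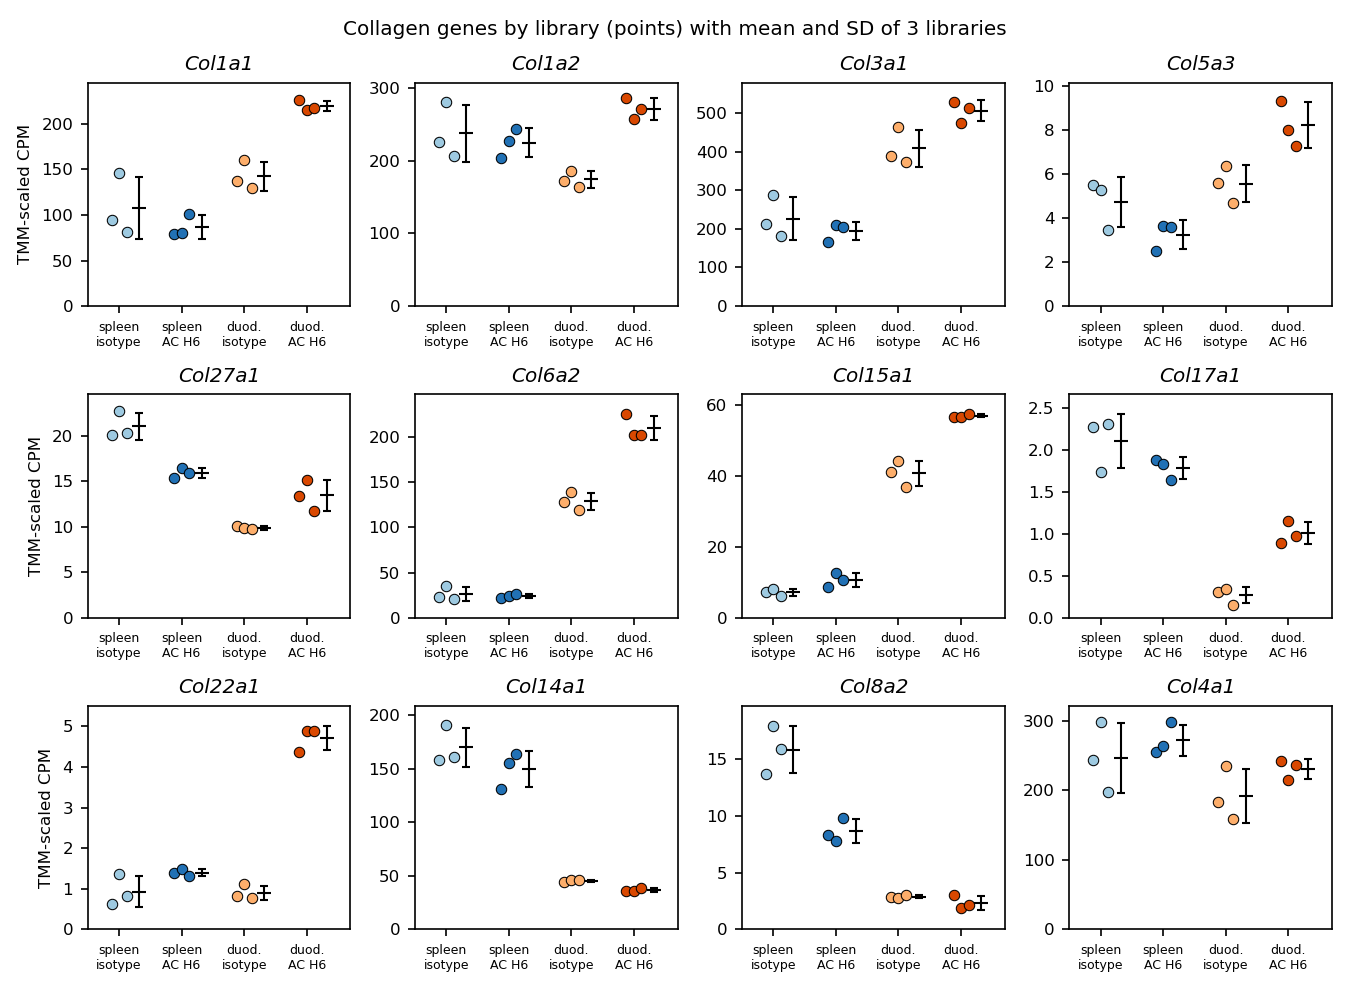
TMM-scaled CPM (y axis, from 0) of 12 collagen genes in each of the 12 libraries (points, by group on the x axis), with mean and SD of the 3 libraries beside each group. Col22a1 in duodenum goes from at most 1.11 under isotype to at least 4.36 under AC H6, and Col27a1 falls in spleen and rises in duodenum.

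The windows of 4 genes below are shown as examples among collagens that rose in duodenum and have no annotated exon in the window. They were chosen after their motif matches were seen, so that most of the motifs searched appear. Col15a1, Col5a1 and Col6a3 also rose and have no exon there, and of these Col5a1 alone held a match, to the Sp1 box. They are the 250 bases before the RefSeq start on GRCm38.p6, 5′ to 3′ on the gene's strand, with capitals marking any match on either strand to any of 5 motifs. These are the CCAAT box, the TATAAA box, the box GGGCGG bound by Sp1, the AP-1 site TGANTCA and the NF-kB consensus. Their positions are chr1:45311288-45311537 (plus) for Col3a1, chr9:20815068-20815317 (minus) for Col5a3, chr4:63215162-63215411 (plus) for Col27a1 and chr10:76623631-76623880 (minus) for Col6a2, for which this is the farther upstream of 2 RefSeq starts. The Col27a1 window precedes the RefSeq start but lies inside the longer GENCODE span given above.
Col3a1: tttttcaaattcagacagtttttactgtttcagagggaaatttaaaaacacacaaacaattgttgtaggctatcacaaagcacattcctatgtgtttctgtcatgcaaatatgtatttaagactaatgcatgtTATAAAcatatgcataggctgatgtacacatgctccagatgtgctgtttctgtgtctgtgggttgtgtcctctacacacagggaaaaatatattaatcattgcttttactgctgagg
Col5a3: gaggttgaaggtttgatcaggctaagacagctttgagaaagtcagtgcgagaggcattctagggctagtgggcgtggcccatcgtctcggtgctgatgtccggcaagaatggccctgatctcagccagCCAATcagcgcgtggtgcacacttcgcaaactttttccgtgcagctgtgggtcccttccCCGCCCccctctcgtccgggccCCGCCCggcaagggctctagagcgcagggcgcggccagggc
Col27a1: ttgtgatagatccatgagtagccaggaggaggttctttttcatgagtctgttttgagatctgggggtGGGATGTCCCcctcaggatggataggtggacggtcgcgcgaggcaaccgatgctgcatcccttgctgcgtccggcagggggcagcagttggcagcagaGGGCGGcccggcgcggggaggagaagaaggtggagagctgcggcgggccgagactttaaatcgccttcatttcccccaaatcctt
Col6a2: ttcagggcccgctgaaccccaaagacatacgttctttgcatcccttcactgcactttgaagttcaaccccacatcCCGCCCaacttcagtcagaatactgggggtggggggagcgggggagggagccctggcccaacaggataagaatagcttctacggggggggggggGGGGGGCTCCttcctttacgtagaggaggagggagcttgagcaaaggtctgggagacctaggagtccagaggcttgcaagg
Such windows were found for 33 of the 40 members, 35 windows in all, and for neither Col1a1 nor Col22a1. The Sp1 box was in 22 of the 35 windows and in 32.7% of all 32851 windows of this length. The CCAAT box was in 12 of 35 and in 33.8% of all windows, and the TATAAA box in 4 of 35 and in 12.4%. The AP-1 letters were in 1 of 35 windows, that of Col6a1, and in 6.75% of all. The NF-kB consensus, whose matches can overlap those of the Sp1 box, was in 5 of 35 windows and in 7.25% of all: its genes were Col27a1, Col4a2, Col6a2 and Col9a2, which rose in duodenum, and Col6a4, which was not called. Of the 14 genes with a window that rose in duodenum 4 thus held it, and of the other 19 genes 1. The same split was 6 and 6 for the CCAAT box, 9 and 12 for the Sp1 box, 2 and 2 for the TATAAA box and 1 and 0 for the AP-1 site. Of the 5 windows with the NF-kB consensus, those of Col4a2 and Col6a4 lie wholly in annotated exon. In that of Col9a2 181 of 250 bases do, and the match of Col6a2 begins in a run of G. A match is a string of letters and not a bound site.

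At the basement membrane zone, Col15a1 and Col18a1 anchor the membrane to the matrix and carry the fragments restin and endostatin. Col15a1 (chromosome 4, 47208161 to 47313167, plus strand) had 41.2, 44.2 and 37.0 CPM in duodenum under isotype and 56.7, 56.8 and 57.5 under AC H6, with a wide gap between the groups. For Col15a1 the log2 fold change was 0.51 ± 0.06 (edgeR adjusted p = 0.000678). Col18a1 had 102, 130 and 107 CPM under isotype and 158, 148 and 133 under AC H6, so that the highest isotype library, replicate 2, was close to the lowest AC H6 library. The log2 fold change of Col18a1 was 0.40 ± 0.10 (edgeR adjusted p = 0.0189), and 5 of 15 alternatives lost the call (highest edgeR adjusted p 0.0661): 1 fit of all 12 libraries and leaving out isotype replicate 1 or 3 or AC H6 replicate 1 or 2.

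Col17a1 (chromosome 19, 47646344 to 47692094, minus strand), a membrane-spanning collagen of hemidesmosomes that ties epithelial cells to the basement membrane, was rare. It had 0.308, 0.346 and 0.157 CPM in duodenum under isotype, from 6, 10 and 4 counts, and 0.896, 1.16 and 0.973 under AC H6, from 30, 32 and 36 counts. Every AC H6 library was above every isotype library. The log2 fold change was 1.90 ± 0.30 (edgeR adjusted p = 0.00217), for a gene that passed the filter through its AC H6 libraries alone. Col7a1, which forms the anchoring fibrils below hemidesmosomes, had 2.67, 3.60 and 3.14 CPM under isotype and 3.53, 4.53 and 3.73 under AC H6, and its log2 fold change of 0.33 ± 0.16 was not called (edgeR adjusted p = 0.143).

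The type IV chains, which assemble as 3 kinds of trimer, did not move as a block. Col4a2 (chromosome 8, 11312805 to 11449287, plus strand) had 122, 149 and 110 CPM in duodenum under isotype and 164, 148 and 158 under AC H6, with overlapping groups. Its log2 fold change of 0.33 ± 0.11 was just called (edgeR adjusted p = 0.0438), and the call was lost in 6 of 15 alternatives, 5 of them leaving out a library other than isotype replicate 2, with adjusted p up to 0.127. Col4a1, its partner in the ubiquitous trimer, had 183, 235 and 159 CPM under isotype and 242, 215 and 237 under AC H6, and a log2 fold change of 0.29 ± 0.13 that was not called (edgeR adjusted p = 0.116). Without isotype replicate 2, the highest of its group, the log2 fold change of Col4a1 was 0.46 (edgeR adjusted p = 0.00798). The ratio of Col4a1 to Col4a2 per kilobase was 1.34 ± 0.0569 under isotype and 1.31 ± 0.0218 under AC H6, within the spread.

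Col4a3 (chromosome 1, 82586921 to 82722059, plus strand), a chain of the trimer known from kidney glomeruli, lung and cochlea, was lower. It had 3.90, 3.94 and 2.75 CPM under isotype and 2.30, 2.54 and 2.03 under AC H6, with no overlap. The log2 fold change was -0.61 ± 0.18 (edgeR adjusted p = 0.0312), and 6 of 15 alternatives lost the call, among them leaving out isotype replicate 1 or 2 or AC H6 replicate 1 or 3, with adjusted p up to 0.154. Of its merged exons 5.65% overlap a transcript on the opposite strand, and the kit does not mark strand. Col4a4, Col4a5 and Col4a6 had log2 fold changes of -0.41 ± 0.27, -0.03 ± 0.08 and -0.18 ± 0.15 and were not called.

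For type VI, the collagen of beaded microfilaments, the 3 classic chains rose. Col6a1 (chromosome 10, 76708792 to 76726168, minus strand) had 163, 166 and 149 CPM in duodenum under isotype and 235, 222 and 217 under AC H6. Col6a2 (chromosome 10, 76595762 to 76623630, minus strand), its neighbour, had 128, 139 and 119 under isotype and 226, 202 and 203 under AC H6. Col6a3, the long chain, had 64.4, 71.0 and 62.4 under isotype and 86.3, 74.0 and 78.9 under AC H6. For each the AC H6 libraries lay above the isotype libraries, narrowly so for Col6a3. The log2 fold changes were 0.52 ± 0.07 for Col6a1 (edgeR adjusted p = 0.000939), 0.73 ± 0.08 for Col6a2 (edgeR adjusted p = 0.000387) and 0.30 ± 0.07 for Col6a3 (edgeR adjusted p = 0.0141). The Col6a3 call was lost in 1 fit of all 12 libraries (edgeR adjusted p = 0.0772).

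The chains did not keep their proportions: the ratio of Col6a1 to Col6a2 per kilobase was 2.42, 2.27 and 2.38 under isotype and 1.98, 2.09 and 2.04 under AC H6. These groups do not overlap. The alternative partner chains Col6a4 and Col6a5 were not called, with log2 fold changes of 0.16 ± 0.06 (edgeR adjusted p = 0.0861) and 0.17 ± 0.10 (edgeR adjusted p = 0.219). Col6a4 alone of these would be called under the stricter filter on low counts (edgeR adjusted p = 0.0452).

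Fibril-associated collagens lie on the surface of fibrils and link them to other matrix, and they split in direction. Col22a1 (chromosome 15, 71795795 to 72034227, minus strand), known from tissue junctions such as those of muscle and tendon, had the largest rise of the 37 collagens tested in duodenum. It had 0.821, 1.11 and 0.786 CPM under isotype and 4.36, 4.89 and 4.89 under AC H6, from 16 to 32 and 135 to 181 counts. The highest isotype library was far below the lowest AC H6 library. The log2 fold change was 2.38 ± 0.17 (edgeR adjusted p = 5.05e-05), and it lay between 2.28 and 2.57 over 15 alternatives, with the call kept in each.

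Col16a1, an adaptor at fibrils and basement membranes, had 14.9, 15.1 and 15.4 CPM under isotype and 25.0, 22.9 and 21.2 under AC H6. The rise of Col16a1 was 0.63 ± 0.07 on the log2 scale (edgeR adjusted p = 0.000564), with groups well apart. Col9a2, a chain of type IX collagen of cartilage, had 0.513, 0.415 and 0.668 CPM under isotype and 0.956, 1.70 and 1.00 under AC H6, with AC H6 replicate 2 high. Its log2 fold change was 1.20 ± 0.32 (edgeR adjusted p = 0.0212), and the call was lost in 4 of 14 alternatives (highest adjusted p 0.0673): leaving out isotype replicate 1, isotype replicate 2 or AC H6 replicate 2, or both acinar-rich libraries.

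Col14a1 (chromosome 15, 55307750 to 55520803, plus strand), also called undulin, went the other way. Its duodenum CPM were 44.4, 46.0 and 45.8 under isotype and 35.7, 35.8 and 38.7 under AC H6, 2 tight groups without overlap. The log2 fold change was -0.28 ± 0.05 (edgeR adjusted p = 0.00287), and the call was kept in each of 15 alternatives. Col12a1, its closest relative by structure, had 28.2, 28.6 and 29.4 CPM under isotype and 24.0, 25.9 and 26.7 under AC H6, also without overlap. Its log2 fold change of -0.15 ± 0.06 was not called (edgeR adjusted p = 0.0867). Col9a3 at 0.25 ± 0.31 and Col20a1 at 0.15 ± 0.17 were not called either. Of the merged exons of Col9a3 6.07% overlap the gene Tcfl5 on the opposite strand, and the kit does not mark strand. Without both acinar-rich libraries, isotype replicate 2 and AC H6 replicate 3, the duodenum value of Col9a3 was 0.90 (edgeR adjusted p = 0.00538), and the differences between tissues tested below were called for Col9a3 (0.91, edgeR adjusted p = 0.049) and Col20a1 (0.61, edgeR adjusted p = 0.0484).

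The remaining classes gave no call in duodenum. Of the short-chain collagens, which form hexagonal lattices such as that of Descemet's membrane, Col8a1 had a log2 fold change of -0.26 ± 0.18 and Col8a2 of -0.28 ± 0.20. Among the membrane-spanning collagens the log2 fold changes were -0.03 ± 0.11 for Col13a1, -0.17 ± 0.08 for Col23a1 and 0.16 ± 0.29 for Col25a1. Col28a1, a collagen of peripheral nerve, was at 0.13 ± 0.18.

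In spleen few collagens were called. Of 37 tested members edgeR called 0 higher and 2 lower, where 2.06% of all 15270 genes tested were called higher and 1.92% lower. At an unadjusted p under 0.05 there were 14 members in either direction, DESeq2 called 2 higher and 4 lower against 15.4% of all genes in either direction, and limma-voom 0 higher and 2 lower against 3.84%. The median log2 fold change of the collagens was -0.18, against -0.0009 over all genes tested, and 12 of 37 values were above 0. The CPM of the groups did not overlap for 2 higher and 10 lower members, where this held for 15.5% and 17.2% of all genes tested. Col11a1, Col24a1 and Col25a1 were not tested in spleen. Haemoglobin genes took 12.1, 19.0 and 7.59% of the counts in the isotype libraries and 28.3, 15.7 and 22.5% under AC H6, and markers of red cell precursors had a median log2 fold change of 1.12 with 0 of 8 called and 5 at an unadjusted p under 0.05. With haemoglobin, Rn45s and acinar genes left out, the spleen count was again 0 higher and 2 lower.

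Col8a2 (chromosome 4, 126286793 to 126314330, plus strand) fell most among the calls. Its spleen CPM were 13.7, 17.9 and 15.9 under isotype and 8.34, 7.78 and 9.83 under AC H6. The groups were far apart, and the log2 fold change was -0.88 ± 0.12 (edgeR adjusted p = 0.0219). Col8a1, the other chain of type VIII, had 1.99, 2.19 and 2.11 CPM under isotype and 1.14, 1.13 and 1.72 under AC H6, without overlap, and a log2 fold change of -0.70 ± 0.19 that was not called (edgeR adjusted p = 0.0828).

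Col27a1 had 20.1, 22.8 and 20.3 CPM in spleen under isotype and 15.4, 16.4 and 15.9 under AC H6. Its groups did not overlap either, and the log2 fold change was -0.40 ± 0.07 (edgeR adjusted p = 0.0325). Both calls were lost, with the same sign, when any library but AC H6 replicate 2 was left out, with edgeR adjusted p of 0.0627 to 0.0735 for Col8a2 and 0.0776 to 0.125 for Col27a1. Over all genes those fits called 12 to 76 higher and 2 to 28 lower, against 315 and 293 with every spleen library. Over 14 alternatives the log2 fold change lay between -0.97 and -0.78 for Col8a2 and between -0.43 and -0.34 for Col27a1.

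Next in order of unadjusted p in spleen came Col4a4, with 1.14, 1.14 and 0.816 CPM under isotype and 0.516, 0.546 and 0.614 under AC H6 and a log2 fold change of -0.89 ± 0.21 (edgeR adjusted p = 0.0613). Col4a3, which shares its trimer, was at -0.94 ± 0.39 (edgeR adjusted p = 0.172). Col15a1 had 7.33, 8.11 and 6.05 CPM under isotype and 8.79, 12.8 and 10.6 under AC H6 with all AC H6 libraries above all isotype libraries. Its log2 fold change was 0.58 ± 0.16 (edgeR adjusted p = 0.0859), and 1 fit of all 12 libraries (0.0281) and DESeq2 (0.00317) put its adjusted p under 0.05.

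The abundant spleen collagens showed no call. Col1a1 had 94.2, 146 and 81.8 CPM under isotype and 78.8, 80.1 and 102 under AC H6, with isotype replicate 2 high. Col3a1 had 212, 287 and 181 under isotype and 167, 209 and 205 under AC H6. The log2 fold changes were -0.30 ± 0.21 for Col1a1, -0.08 ± 0.12 for Col1a2, -0.23 ± 0.17 for Col3a1, 0.14 ± 0.14 for Col4a1 and 0.07 ± 0.14 for Col4a2. Isotype replicate 2 was the highest isotype library for each of these 5 genes. Among spleen fibroblast markers 1 of 8, Pi16, was called higher and 0 lower, and their summed CPM was 228 to 272 under isotype and 215 to 243 under AC H6.

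Whether AC H6 acted alike on a collagen in both tissues was tested with the interaction of tissue and treatment over all 12 libraries. Of 39 tested members 10 had a larger log2 fold change in duodenum than in spleen at an edgeR adjusted p under 0.05, and 0 a smaller one, against 10.9% and 9.13% of all 16655 genes tested. At an unadjusted p under 0.05 there were 15 members, DESeq2 called 11 larger and 0 smaller against 22.9% of all genes in either direction, and limma-voom 10 and 0 against 18.2%. All 10 are among the 17 genes that rose in duodenum. The 4 fibrillar genes are Col1a1, Col1a2, Col5a3 and Col27a1, and the others are Col6a1, Col6a2, Col9a2, Col16a1, Col17a1 and Col22a1.

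The largest difference of log2 fold changes, duodenum minus spleen, was 2.09 ± 0.34 for Col17a1 (edgeR adjusted p = 0.00151), followed by 1.95 ± 0.53 for Col9a2 (edgeR adjusted p = 0.022) and 1.85 ± 0.33 for Col22a1 (edgeR adjusted p = 0.00265). The spleen part of the Col9a2 value was a log2 fold change of -0.75 ± 0.38 that was not called (edgeR adjusted p = 0.237). It came from 3 to 15 counts per spleen library, and in spleen Col9a2 passed the filter through its isotype libraries alone. Col27a1, with calls of opposite sign in the 2 tissues, differed by 0.85 ± 0.13 (edgeR adjusted p = 0.000846). The difference for Col1a1 was 0.93 ± 0.25 (edgeR adjusted p = 0.0216) and lost its call without duodenum isotype replicate 3 (0.0543) or spleen AC H6 replicate 1 (0.0525). That for Col6a2 was 0.84 ± 0.22 (edgeR adjusted p = 0.0211) and lost its call without either of those or duodenum AC H6 replicate 1 (adjusted p up to 0.0521), and Col9a2 lost its call without duodenum isotype replicate 2 (0.0505). Col6a1, at 0.63 ± 0.20 (edgeR adjusted p = 0.0427), was called in 11 of 20 alternatives, the fewest of the 10. The values for Col5a3, Col1a2 and Col16a1 were 1.11 ± 0.29, 0.72 ± 0.15 and 0.60 ± 0.12, with edgeR adjusted p of 0.0173, 0.00596 and 0.00444.

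For the other 7 genes that rose in duodenum the difference between tissues was not called. Col15a1 and Col6a3 had near equal log2 fold changes in both, 0.51 and 0.58 for Col15a1 and 0.30 and 0.29 for Col6a3 in duodenum and spleen, and differences of -0.10 ± 0.18 and -0.01 ± 0.16. The differences for Col3a1, Col5a1 and Col5a2 were 0.54 ± 0.21, 0.44 ± 0.20 and 0.45 ± 0.17, with edgeR adjusted p of 0.0933, 0.144 and 0.076. Without spleen isotype replicate 3 all 3 were called, with edgeR adjusted p of 0.0291, 0.0155 and 0.0121. That library was the lowest isotype spleen library for each of these genes, so leaving it out raises the isotype mean and with it the difference. Leaving out any other single library called neither Col3a1 nor Col5a1. With all 12 libraries DESeq2 called Col3a1 (DESeq2 adjusted p = 0.0328) and Col5a2 (0.0331). Col5a2 was also called by edgeR without Rn45s, haemoglobin and acinar genes (adjusted p = 0.0448) and without duodenum isotype replicate 2 (0.046). No type IV chain was called, the differences lying between -0.15 for Col4a6 and 0.47 for Col4a4.

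Between the tissues themselves most collagens differed, as did most genes. Under isotype 19 of 39 tested members were higher in duodenum than in spleen and 11 lower, against 42.2% and 43.8% of all genes tested. In the AC H6 libraries 27 were higher and 10 lower, against 42% and 42.7%. No spleen library of Col24a1 or Col25a1 and no duodenum library of Col19a1 or Col6a6 reached the level of the filter, so these 4 entered through the tissue where they are high and had to differ. All 4 were called with no filter as well. No isotype duodenum library of Col17a1 reached the level of the filter either, so under isotype Col17a1 entered through spleen alone and had to differ. Col17a1 too was called with no filter. Called the same way in both sets were 19 higher and 9 lower members, Col1a2 was lower in duodenum under isotype and higher under AC H6, and 7 members were called higher under AC H6 alone. Of those 7 the interaction was called for Col1a1, Col5a3, Col9a2 and Col22a1 and not for Col5a2, Col8a1 and Col9a3. Col1a2 was at log2 -0.48 ± 0.11 under isotype (edgeR adjusted p = 0.00374) and 0.25 ± 0.08 under AC H6 (edgeR adjusted p = 0.0198), and the latter call was lost without duodenum AC H6 replicate 1 (0.0754) or spleen AC H6 replicate 1 (0.0739).

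**Figure D4:**
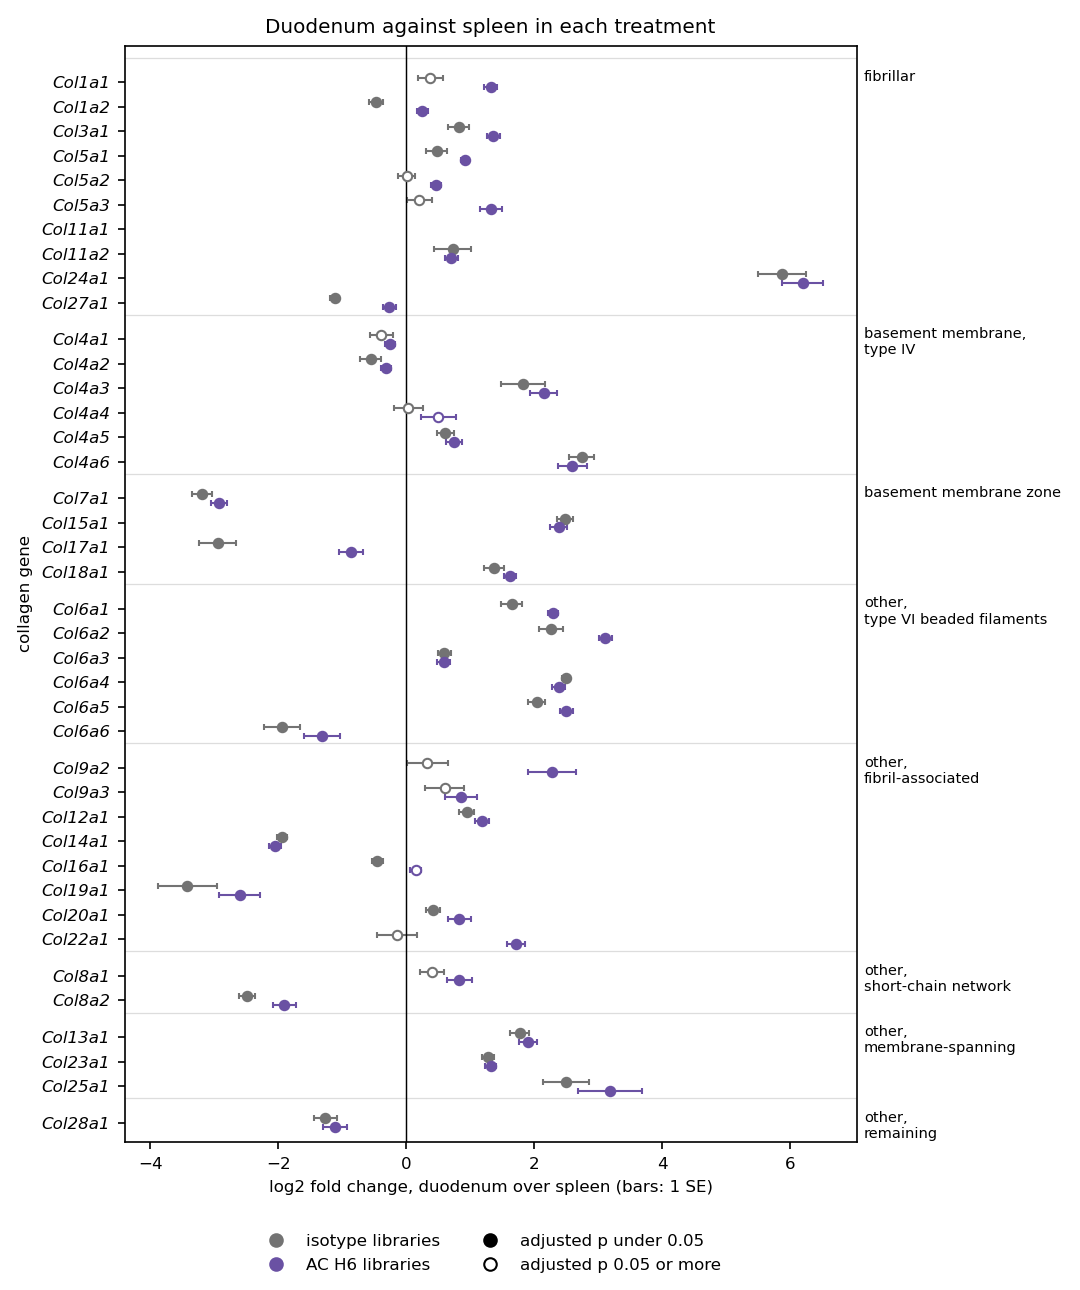
Log2 fold change of duodenum over spleen (x axis, bars 1 SE) for each collagen gene (y axis, by class) in the isotype libraries (grey) and the AC H6 libraries (purple), with filled symbols at an edgeR adjusted p under 0.05. Col24a1 lies near 6 to the right and Col7a1, Col19a1, Col8a2 and Col14a1 to the left of 0 in both sets.

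Col24a1, a fibrillar collagen that in development marks bone and cornea, was the most uneven. Its duodenum CPM were 2.26, 2.21 and 2.36 under isotype and 2.09, 1.96 and 2.41 under AC H6, and no spleen library exceeded 0.068. Over the 3 libraries of a group there were 168 counts in isotype duodenum and 3 in isotype spleen, a scaled ratio of 67.5 (95% exact counting interval 22.7 to 331). With 213 and 3 counts the ratio under AC H6 was 85.8 (29.0 to 419), and both intervals cover counting error only.

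Other collagens of duodenum were Col4a6, which pairs with Col4a5 in smooth muscle basement membrane, at log2 2.75 ± 0.19 under isotype and 2.60 ± 0.22 under AC H6, and the membrane-spanning Col25a1, with 1 to 7 counts per spleen library, at 2.50 ± 0.36 and 3.19 ± 0.49. The type VI chains Col6a4 (2.50 ± 0.06 and 2.38 ± 0.10) and Col6a2 (2.27 ± 0.19 and 3.12 ± 0.10) followed, with Col15a1 (2.48 ± 0.13 and 2.39 ± 0.13), Col6a5 (2.04 ± 0.13 and 2.51 ± 0.10) and Col6a1 (1.65 ± 0.16 and 2.30 ± 0.09). Smooth muscle markers were higher in duodenum for 8 of 8 genes under both treatments, beside 42.2% (isotype) and 42% (AC H6) of all genes. Fibroblast markers split, with 4 of 8 higher and 4 lower under both. Of 7 endothelial markers 1 was higher under both, while 5 were lower under isotype and 6 under AC H6. Of 8 splenic stroma genes 1 was higher and 7 lower under both. The part of these markers in the collagen differences was not tested.

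Among collagens of spleen, Col19a1 is known from basement membrane zones of muscle and nerve, and had 1.25, 1.12 and 1.19 CPM in isotype spleen and 0, 0.104 and 0.197 in isotype duodenum. From 0 to 5 counts per duodenum library, its fitted log2 fold change, duodenum over spleen, was -3.42 ± 0.46 under isotype and -2.60 ± 0.32 under AC H6. Col7a1 had 28.2, 32.8 and 24.0 CPM in isotype spleen and 2.67, 3.60 and 3.14 in isotype duodenum, log2 fold changes of -3.19 ± 0.15 and -2.93 ± 0.12. In both treatment sets every spleen library was above every duodenum library for both genes.

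Col17a1, the hemidesmosome collagen, was also higher in spleen, at -2.95 ± 0.29 under isotype and -0.86 ± 0.18 under AC H6. It entered the isotype test through its spleen libraries alone. Col8a2 was at -2.49 ± 0.12 and -1.90 ± 0.18, Col14a1 at -1.93 ± 0.08 and -2.05 ± 0.10, and Col6a6, unlike the other type VI chains, at -1.94 ± 0.28 and -1.31 ± 0.28. All values in this paragraph and the one before it were called by edgeR.

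Partner chains also had tissue-specific ratios. Per kilobase, Col1a1 to Col1a2 was 0.789, 0.980 and 0.752 in isotype spleen against 1.51, 1.63 and 1.49 in isotype duodenum, with no overlap. With the longest transcript the ratios were lower, 0.400 ± 0.0583 and 0.735 ± 0.0346, but still apart. Col8a2 to Col8a1 was 13.1 ± 1.12 in spleen and 1.85 ± 0.417 in duodenum, and Col4a5 to Col4a6 was 13.2 ± 0.319 and 3.04 ± 0.753. The ratio of Col4a1 to Col4a2, 1.20 ± 0.0262 in spleen and 1.34 ± 0.0569 in duodenum, was the least unequal of the 9 pairs compared.

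Several members are neighbours in the genome. Col4a1 and Col4a2 lie head to head on chromosome 8 with first exons that overlap by 22 bases, Col4a4 and Col4a3 head to head on chromosome 1 with 71 bases between them, and Col4a6 and Col4a5 head to head on the X chromosome with 1308 bases between them. Head-to-head partners did not always share their tissue pattern: Col4a3 was higher in duodenum under both treatments (log2 1.82 ± 0.34 under isotype) while Col4a4 was called in neither (0.04 ± 0.23). Col3a1 and Col5a2, tail to tail on chromosome 1 with 24614 bases between them, both rose in duodenum under AC H6. So did Col6a2 and Col6a1, which lie on the same strand of chromosome 10 with 85161 bases between them.

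The enzymes and binding partners of collagen were described from 6 lists, whose counts stand against 18.5% of all genes called higher and 16.1% lower in duodenum and 2.06% and 1.92% in spleen. In duodenum 9 of 17 tested folding and modification genes were called higher and 1 lower. The highest were P4ha1, a catalytic subunit of prolyl hydroxylase (log2 0.99 ± 0.07, edgeR adjusted p = 3.44e-05), and Serpinh1, the collagen chaperone HSP47 (0.80 ± 0.06, edgeR adjusted p = 8.84e-05), with the lysyl hydroxylase Plod3 (0.49 ± 0.05) and the galactosyltransferase Glt25d1 (0.37 ± 0.05) also higher. P4hb, the other subunit of prolyl hydroxylase and a general disulfide isomerase, was the gene called lower. In spleen 2 of 18 were called higher, Plod3 (0.36 ± 0.06) and P4hb (0.27 ± 0.05), and 0 lower, with 8 at an unadjusted p under 0.05 in either direction.

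Of the genes that trim and crosslink collagen, 7 of 14 tested were higher in duodenum and 0 lower, beside 18.5% and 16.1% of all genes. They include Pcolce, which speeds the removal of the C-terminal propeptide (log2 0.80 ± 0.07), the transglutaminase Tgm2 (0.74 ± 0.06), the lysyl oxidase Loxl3 (0.67 ± 0.09) and Pxdn, the peroxidase that crosslinks type IV (0.45 ± 0.08). Tgm2 was also the 1 gene of 13 tested that was called in spleen (0.55 ± 0.06, edgeR adjusted p = 0.0104). Basement membrane partners of type IV were higher in 8 of 15 genes in duodenum and lower in 0. Among them were the laminin chains Lamb3 (1.03 ± 0.08) and Lama5 (0.44 ± 0.06) and the proteoglycan perlecan, Hspg2 (0.83 ± 0.09).

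Fibril-binding proteins went both ways in duodenum, with 6 of 12 higher and 2 lower, and 3 of those higher, Dcn, Dpt and Lum, are the fibroblast markers named above. Biglycan, Bgn (log2 0.75 ± 0.06), decorin, Dcn (0.77 ± 0.09), and periostin, Postn (0.70 ± 0.09), were higher, and osteoglycin, Ogn, was lower (-0.89 ± 0.11), as was fibronectin, Fn1. In spleen 1 of 12 was called, Thbs1, and higher (0.84 ± 0.13). Among collagen receptors 4 of 9 tested were higher and 1 lower in duodenum, beside the same 18.5% and 16.1%. Those higher were the inhibitory leukocyte receptor Lair1 (0.79 ± 0.09), the integrin chains Itga2 (0.63 ± 0.10) and Itga1 (0.46 ± 0.08) and the discoidin receptor Ddr2 (0.33 ± 0.06). Itga11, the integrin chain of fibroblasts for type I collagen, was lower in duodenum (-1.03 ± 0.20, edgeR adjusted p = 0.00528) and in spleen (-0.89 ± 0.11, edgeR adjusted p = 0.0137).

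Factors that induce collagen in culture were mostly uncalled. In duodenum 1 of 12 tested was higher, Tgfb1 (log2 0.90 ± 0.07, edgeR adjusted p = 7.05e-05), and 2 were lower, Ctgf (-0.45 ± 0.11) and Pdgfa (-0.33 ± 0.10). In spleen 0 of 12 were higher and 2 lower, Cyr61 (-1.06 ± 0.11) and Tgfb3 (-0.75 ± 0.13), with 5 at an unadjusted p under 0.05 in either direction.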

How the data were processed

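Spleen and duodenum RNA was sequenced in 12 libraries. Per the labels' protocols, a TruSeq RNA kit was used, which does not mark strand, and the text on tissue collection speaks of brain. The submitters' processing notes name STAR 2.3, bcl2fastq 2.19, Trimmomatic, edgeR and the mm10 build, while neither counting program nor gene models are named (not given in the sources used here). Each library came as a deposited table of read counts in whole numbers by gene symbol, in which, per the file headers, reads with several matches are kept. Groups came from the tissue and treatment labels, replicate numbers from the titles.

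From these counts, edgeR 4.0.16 (R 4.3.3) gave TMM factors over 12 libraries and the CPM scaled with them. It also gave quasi-likelihood F-tests after filterByExpr (minimum count 10), per tissue, per treatment and for the interaction, with Benjamini-Hochberg adjustment over all genes tested. Each test used TMM factors computed from its own libraries, so fold changes and CPM need not share 1 scaling. The tests were tested on simulated data. Rows were matched to GENCODE M21 (GRCm38) by symbol for 20915 of 23329, which gave positions and exon lengths. Alternatives were other size factors and filters, DESeq2 1.42.0, limma-voom 3.58.1, a replicate block, 1 fit of all 12 libraries, leaving out Rn45s, haemoglobin and acinar genes, and leaving out libraries.

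Named with values were all called members, per class and tissue the 4 with the highest level per kilobase, per tissue the 3 of smallest p, the 5 largest tissue differences each way called in both treatments, and up to 4 genes of smallest p per list; other members are named after their values were seen, and 1 listed gene is not reported here. The members and lists were chosen with earlier results of these data known. No 2 libraries were identical or agreed within sampling noise.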

Additional observations from a re-analysis of the deposited data

Results flagged for a closer look

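For 10 collagen genes the difference that AC H6 made was larger in duodenum than in spleen by the test of that difference itself, the interaction term of edgeR over 12 libraries at an adjusted p under 0.05. On the log2 scale, duodenum minus spleen, the values were 2.09 for Col17a1, 1.95 for Col9a2, 1.85 for Col22a1, 1.11 for Col5a3, 0.93 for Col1a1, 0.85 for Col27a1, 0.84 for Col6a2, 0.72 for Col1a2, 0.63 for Col6a1 and 0.60 for Col16a1. Among these 10, Col27a1 is the gene with a call in each tissue, lower in spleen and higher in duodenum. Over 20 alternatives (19 for Col17a1 and 18 for Col9a2, where a filter left the gene out), the call held in all for Col27a1, Col17a1, Col22a1, Col16a1, Col1a2 and Col5a3, in 18 for Col1a1, 17 for Col6a2, 16 for Col9a2 and 11 for Col6a1. No group of 3 libraries was large enough to look for single outlying libraries.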

How the results depend on the processing

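The count of collagens called in spleen, 2 under the reported fit, was 6 with DESeq2 and 0 with the replicate number as a block, and lay between 0 and 2 when each library was left out in turn. Over all genes the spleen calls were 608 with edgeR and 2303 with DESeq2. With the replicate block edgeR called 1 gene higher in spleen and 0 lower over all genes tested. Leaving out spleen AC H6 replicate 2 gave 575 genes higher and 557 lower. Leaving out any other spleen library gave 12 to 76 higher and 2 to 28 lower. In duodenum the count of 19 lay between 14 and 20 without each library in turn, the interaction count of 10 between 7 and 13, and the tissue counts of 30 under isotype and 37 under AC H6 between 28 and 32 and between 35 and 37. Over all genes those fits called 2240 to 2629 genes higher and 1739 to 2137 lower in duodenum. For the interaction they called 1445 to 1888 larger and 943 to 1763 smaller. For the tissues they called 6619 to 6845 higher and 6775 to 7056 lower under isotype. Under AC H6 these were 6726 to 6916 and 6764 to 6972. The replicate numbers could not be shown to pair libraries: same-numbered libraries correlated over 0.1 in only some pairs (0.344, 0.180 and -0.162 in duodenum, 0.169, -0.041 and -0.016 in spleen). Between tissues the values were 0.131, 0.317 and 0.095 under isotype, where each library correlated best with its own number, and 0.109, 0.096 and -0.127 under AC H6, where that did not hold. With the replicate block the counts were 19 in duodenum, 10 for the interaction, 32 under isotype, with Col1a1 and Col4a1 added, and 37 under AC H6. Col11a2 changed sign into a call without the duodenum libraries richest in acinar genes, a choice made after the data were seen, with an interaction of 0.52 (edgeR adjusted p = 0.0372; -0.02 with all libraries). Leaving out single libraries as well, its interaction ran from -0.22 to 0.52; the cause was not tested. Of single-gene values under the alternatives listed at the start, 2722 kept their side of the threshold, 72 lost a call and 32 gained one. Members with few counts, such as Col17a1 with 4 to 10 counts per isotype duodenum library, rest on little depth. So does Col9a2, with 3 to 15 counts per spleen library.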
